A study of Mus musculus with 12 samples.

Results

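Collagens, elastin, fibronectin and the enzymes that modify and crosslink them were followed in mouse lung. The rule took genes by name alone: every collagen alpha chain, the lysyl oxidases (Lox and Loxl1 to Loxl4), the prolyl hydroxylase subunits P4ha1 to P4ha3, the lysyl hydroxylases Plod1 to Plod3, the fibrillins Fbn1 and Fbn2, Eln and Fn1. It found 59 genes among the 17920 in the deposited files, of which 44 were collagen chains. A minimum of 0.5 FPKM (fragments per kilobase, scaled to the library's depth) in at least 3 libraries left 41 members and 13735 genes in all for testing.

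The lungs came from male BALB/c mice of 6 to 8 weeks, with 1 library of polyadenylated RNA per mouse and 3 mice per group, taken after 14 days of modelling. The LPS+bLF mice had both LPS and bLF, under a treatment tag that spells LPS as LBS. The LPS mice had 50 µL of lipopolysaccharide, a bacterial cell wall endotoxin, at 1 µg/µL. The bLF mice had 200 mg/kg of bovine lactoferrin (a protein of milk that binds iron) daily, and the control mice had neither agent. The labels give neither the route nor the day of LPS, and whole lung tissue was used, so fewer cells of a type and less RNA per cell cannot be told apart in any value below.

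Collagen chains wind around each other into a helix in the endoplasmic reticulum, after prolyl and lysyl hydroxylases have modified them. Lysyl oxidases then crosslink collagen and elastin outside the cell. Types I and III form the fibrils of the airway and vessel walls and of the alveolar septa, type IV forms the sheet of the basement membrane, and elastin on a fibrillin scaffold gives the lung its recoil. Elastin and fibrillar collagen are made mainly by fibroblasts and smooth muscle cells.

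The promoters of a few members named below are shown, taken from those whose start region was available. Eln, Lox, Col1a1 and Col5a2 had none available. RefSeq (GRCm38.p6, the mm10 assembly, from C57BL/6J and not BALB/c) held a window of 250 bases before and 50 after the start for 42 of the 59 members. In the collagen windows capitals mark CCAAT or TATAAA on either strand (ATTGG and TTTATA on the other strand); no matches overlap in the windows shown. Col1a2 (chr6:4505368-4505667, + strand) held 2 CCAAT matches and Col3a1 (chr1:45311288-45311587, + strand) held 1 TATAAA match:
Col1a2: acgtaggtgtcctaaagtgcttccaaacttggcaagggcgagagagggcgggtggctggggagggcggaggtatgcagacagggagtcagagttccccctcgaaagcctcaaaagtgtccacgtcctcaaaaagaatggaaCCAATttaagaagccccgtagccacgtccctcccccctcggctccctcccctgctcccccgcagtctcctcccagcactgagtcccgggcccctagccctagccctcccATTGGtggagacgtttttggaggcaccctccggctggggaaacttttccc
Col3a1: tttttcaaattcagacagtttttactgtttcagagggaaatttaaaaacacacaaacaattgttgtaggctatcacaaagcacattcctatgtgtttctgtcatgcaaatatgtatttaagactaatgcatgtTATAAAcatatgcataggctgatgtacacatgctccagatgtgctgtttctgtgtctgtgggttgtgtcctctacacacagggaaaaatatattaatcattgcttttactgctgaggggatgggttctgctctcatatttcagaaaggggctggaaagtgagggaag
Col4a1 (chr8:11312777-11313076, − strand) and Col4a2 (chr8:11312555-11312854, + strand) are read in opposite directions from starts that lie 21 bases apart, and their windows overlap. Each held 1 CCAAT match:
Col4a1: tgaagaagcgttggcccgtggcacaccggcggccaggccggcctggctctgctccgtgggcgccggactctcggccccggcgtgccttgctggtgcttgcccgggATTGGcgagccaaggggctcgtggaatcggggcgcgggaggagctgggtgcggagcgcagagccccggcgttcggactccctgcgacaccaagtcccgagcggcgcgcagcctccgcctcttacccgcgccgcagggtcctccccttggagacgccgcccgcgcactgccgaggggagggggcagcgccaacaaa
Col4a2: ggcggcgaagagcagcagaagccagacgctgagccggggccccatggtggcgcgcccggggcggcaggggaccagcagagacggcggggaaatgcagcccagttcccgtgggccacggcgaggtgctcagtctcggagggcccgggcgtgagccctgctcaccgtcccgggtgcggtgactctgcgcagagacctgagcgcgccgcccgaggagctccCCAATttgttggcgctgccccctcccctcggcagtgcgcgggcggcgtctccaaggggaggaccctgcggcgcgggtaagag
In P4ha1 (chr10:59323046-59323345, + strand) and Plod1 (chr4:147936727-147937026, − strand), capitals mark ACGTG or, as another form, GCGTG, the core letters of the hypoxia response element, and their complements on the other strand. P4ha1 held 3 matches and Plod1 held 2:
P4ha1: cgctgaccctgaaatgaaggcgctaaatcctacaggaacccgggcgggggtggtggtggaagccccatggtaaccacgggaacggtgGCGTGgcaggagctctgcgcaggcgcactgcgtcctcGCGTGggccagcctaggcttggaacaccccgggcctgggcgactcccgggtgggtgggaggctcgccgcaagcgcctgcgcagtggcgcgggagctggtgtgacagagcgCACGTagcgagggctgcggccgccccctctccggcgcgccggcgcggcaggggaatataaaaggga
Plod1: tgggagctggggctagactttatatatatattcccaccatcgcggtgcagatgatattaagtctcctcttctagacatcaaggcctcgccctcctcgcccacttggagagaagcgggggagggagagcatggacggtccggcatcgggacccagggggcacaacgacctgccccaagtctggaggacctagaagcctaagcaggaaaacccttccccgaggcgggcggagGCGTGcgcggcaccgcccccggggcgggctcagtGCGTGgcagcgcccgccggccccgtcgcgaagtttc
CCAAT stood in 31.1% of the 45 promoter windows of members and in 37.4% of all 32851 windows, and TATAAA in 15.6% and 13.6%. ACGTG or GCGTG stood in 40.0% of the windows of members and in 43.8% of all. Of the 5 hydroxylase genes with a window, 4 held ACGTG or GCGTG. A match is a run of letters and not a measured binding site.

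Total counts were 16714327 to 17820645 per library. LPS replicate 1 stood apart from the rest, with 3067 genes at a count of 0 where the other libraries had 1499 to 1963. Values without it stand beside many results on the LPS group and, for all 41 tested members, in the plot of LPS fold changes. They are not given for genes and marker lists outside the rule or for the DESeq2 calls. Of all genes tested, 28.2% were highest and 34.6% lowest of the 12 libraries in LPS replicate 1, on CPM (counts relative to the library's total, here scaled by TMM factors). Of the 41 tested members, 18 (43.9%) were highest and 8 (19.5%) lowest there. Brown and white fat markers summed to 23792, 6242 and 11938 FPKM in LPS+bLF replicate 2, bLF replicate 1 and control replicate 1, against 89.5 to 295 FPKM in the other libraries. Skeletal muscle markers summed to 7264 FPKM in LPS+bLF replicate 3, against 14.7 to 195 FPKM elsewhere. Scgb1a1, a secretoglobin of airway club cells, made up 23.8% of all counts in control replicate 2 and 1.68 to 7.43% in the other lungs. FPKM values of other genes are therefore lowered in that library. The TMM factor was lowest in LPS replicate 1 (0.854), followed by control replicate 2 (0.923), and was 0.957 to 1.09 in the other libraries. A factor under 1 raises the scaled values, so deposited FPKM is low relative to them, most of all in LPS replicate 1. The tests use scaled counts. Across 13338 genes, the deviation of a library from the mean correlated with transcript GC content at −0.21 in control replicate 2 and at −0.10 to 0.13 in the others. Lung markers were present throughout, with the alveolar type 2 list at 47080 FPKM or more in every library.

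Elastin was the most abundant member, at a mean of 329 FPKM over the 12 libraries, and its median was 164 FPKM. Col4a2 and Col4a1 of the basement membrane (means of 91.8 and 70.5 FPKM) and Col6a2 of the beaded filaments around cells (77.0 FPKM) came next, ahead of the type I chain Col1a2 (60.3 FPKM). Of the 59 members, 18 averaged at least 10 FPKM and 37 at least 1 FPKM. The 41 tested members differed between their highest and lowest library by a median of 2.85 times. For Eln that ratio was 34.9, the largest among members averaging at least 1 FPKM, and for Col4a2 it was 1.73. The remaining 18 members, 15 of them collagen chains, never exceeded 0.86 FPKM.

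**Figure D1:**
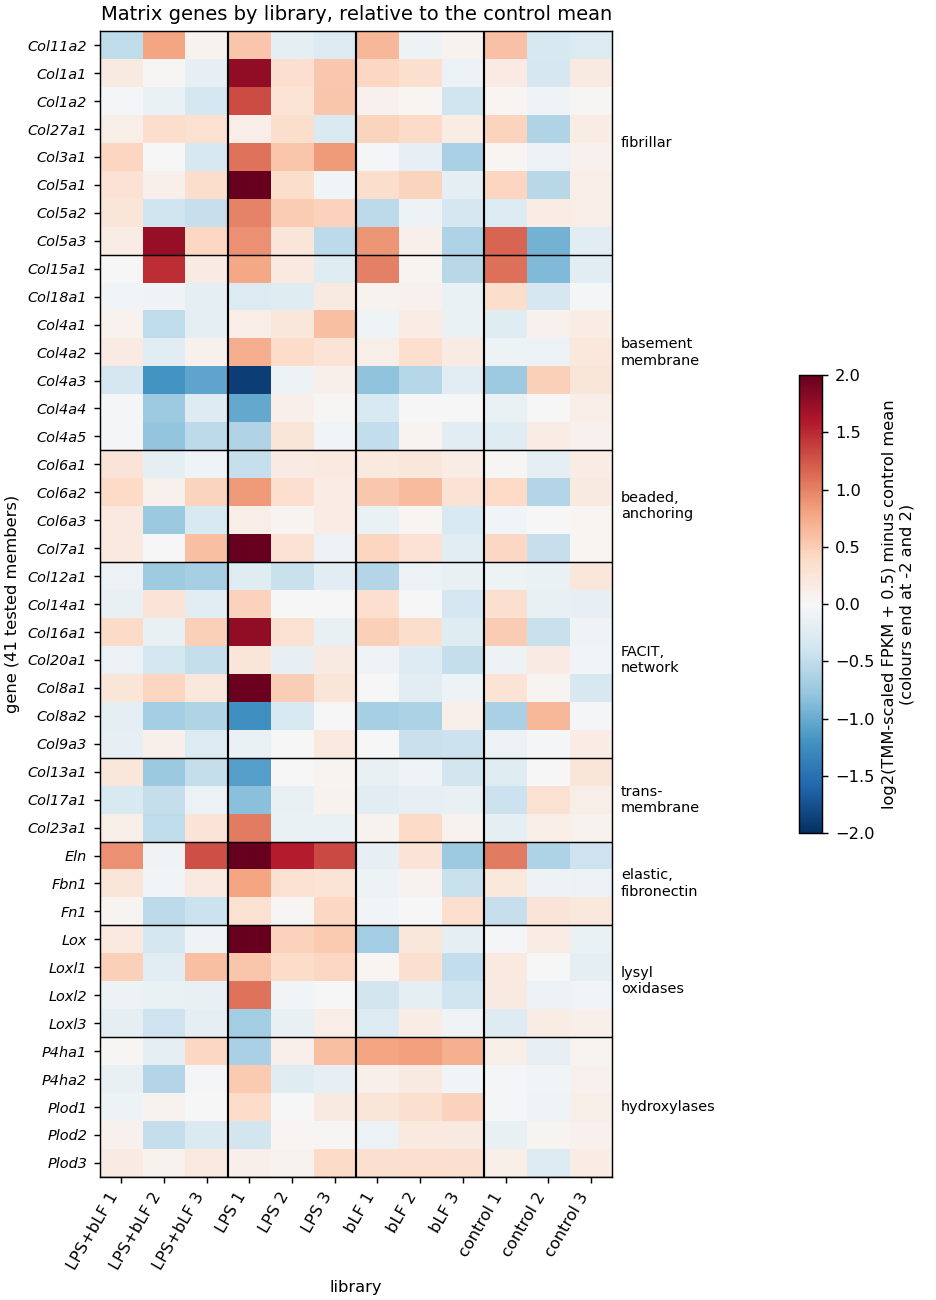
Each cell gives log2(TMM-scaled FPKM + 0.5) of a gene in 1 library minus its mean over the 3 control libraries; rows are the 41 tested members by class, columns the 12 libraries. LPS replicate 1 holds the highest value of 18 of the 41 members and the lowest of 8.

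LPS versus control asked how matrix genes differed after LPS alone. Col1a1, Col1a2, Col3a1 and Col5a2 of the 8 tested fibrillar chains, Eln, Fbn1 and 1 of the 4 tested lysyl oxidases, Lox, were higher in the LPS lungs at an unadjusted p under 0.05. All 8 fibrillar chains had a fitted log2 fold change above 0 (median 0.76), and 5 of 8 had one without LPS replicate 1 (median 0.26), where Col11a2 was at −0.42 and Col5a3 at −0.47. Of the lysyl oxidases 3 of 4 were above 0, and 2 of 4 without that lung. None of the 41 members passed the test: edgeR's quasi-likelihood test with Benjamini-Hochberg adjustment called 0 of 13735 genes (0% called), with 980 at an unadjusted p under 0.05. The fitted log2 fold change was above 0 for 30 of the 41 members, 73.2% against 45.8% of all genes tested. At that unadjusted threshold 9 members were higher, 22.0% of the 41 against 5.52% of all genes tested, and 0 were lower, against 1.62% of all.

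Col3a1, the type III chain of pliable fibrils (ID 12825, chromosome 1, 45311538 to 45349706, GRCm38), was the most even of these. It stood at 45.3, 39.8 and 46.3 FPKM in the LPS lungs, against 27.6, 21.0 and 27.6 FPKM in control lungs. The groups did not overlap, and the lowest LPS lung was above every one of the 9 other lungs. Its log2 fold change was 0.86 ± 0.24 (SE, n = 3; edgeR adjusted p = 0.404), and 0.71 ± 0.24 without LPS replicate 1.

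The type I chains, which form thick fibrils of high tensile strength, differed less evenly. Col1a2 (ID 12843, chromosome 6, 4505618 to 4541543) was at 113, 70.4 and 81.1 FPKM in LPS lungs, against 59.7, 47.0 and 57.5 FPKM in control lungs (log2 fold change 0.79 ± 0.26, SE). Col1a1 was at 64.4, 29.9 and 32.5 FPKM in LPS lungs, against 26.2, 15.7 and 25.9 FPKM in control lungs (1.04 ± 0.35, SE). Neither gene's groups overlapped, and LPS replicate 1 was the highest library for both. Without it the log2 fold changes were 0.42 ± 0.18 for Col1a2 and 0.42 ± 0.21 for Col1a1. Col5a2, a minor chain that is built into type I fibrils and sets their width, was at 7.95, 7.14 and 6.47 FPKM in LPS lungs, against 3.88, 4.59 and 5.14 FPKM in control lungs. Its groups did not overlap (log2 fold change 0.73 ± 0.25, SE, and 0.51 without LPS replicate 1). Col5a1, its partner chain, was at 20.1, 7.60 and 5.28 FPKM in LPS lungs, against 8.03, 3.21 and 6.25 FPKM in control lungs, so its groups overlapped.

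Elastin was the member with the largest difference. Eln (ID 13717, chromosome 5, 134702595 to 134747368) was at 2147, 336 and 266 FPKM in LPS lungs, against 232, 62.1 and 81.9 FPKM in control lungs. LPS replicate 1 held 130236 of its counts, and the other libraries 3662 to 20159. The groups did not overlap, although control replicate 1 lay close to the lowest LPS lung. The log2 fold change was 3.17 ± 0.88 (SE, n = 3; edgeR adjusted p = 0.421) and 1.26 ± 0.52 without LPS replicate 1. Fbn1, the fibrillin of the microfibrils on which elastin is laid down, was at 6.18, 5.53 and 5.06 FPKM in LPS lungs, against 5.11, 3.42 and 3.86 FPKM in control lungs (0.52 ± 0.21, SE, and 0.31 without LPS replicate 1). Fn1, the fibronectin of early wound matrix, overlapped between the groups, with 22.4, 23.5 and 29.1 FPKM in LPS lungs and 16.5, 23.5 and 25.8 FPKM in control lungs.

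**Figure D2:**
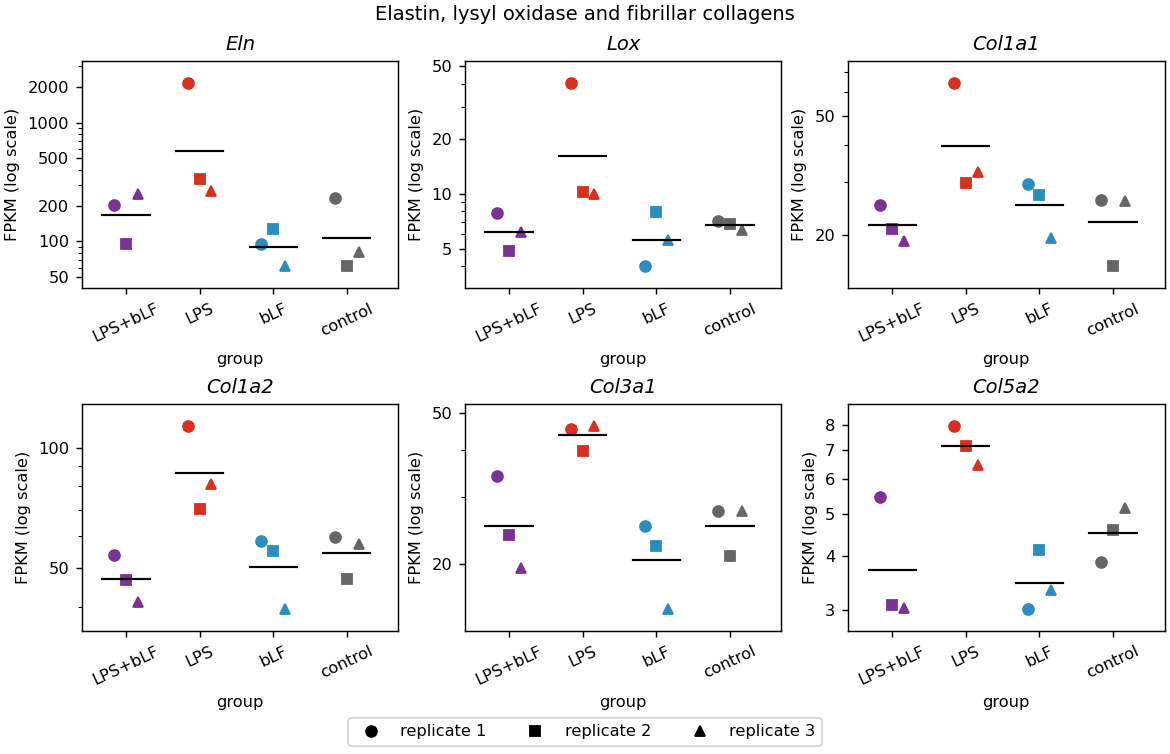
Deposited FPKM of 6 genes on a log scale, 1 point per lung with a symbol for each replicate number and a line at the geometric mean of each group. The 3 LPS lungs lie above the 3 control lungs for each gene, and LPS replicate 1 stands far above the rest for Eln (2147 FPKM) and Lox (40.4 FPKM).

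Of the crosslinking enzymes, Lox, the main lysyl oxidase, was at 40.4, 10.2 and 9.99 FPKM in LPS lungs, against 7.10, 6.85 and 6.31 FPKM in control lungs. The groups did not overlap. Its log2 fold change of 1.74 ± 0.55 (SE) was 0.51 ± 0.26 without LPS replicate 1. Loxl1, the family member tied to elastic fibres in mice, was at 53.0, 59.4 and 57.5 FPKM in LPS lungs, against 52.2, 38.7 and 38.9 FPKM in control lungs (0.45 ± 0.25, SE, and 0.38 without LPS replicate 1). For Loxl1 LPS replicate 1 was the lowest of the LPS lungs in FPKM and close to control replicate 1. On TMM-scaled values it was the highest of the LPS lungs, and the groups did not overlap. Loxl2, which also crosslinks basement membrane collagen, had 3.68 FPKM in LPS replicate 1 and 1.83 and 1.80 in the other LPS lungs, against 1.46 to 2.23 FPKM in control lungs. Its log2 fold change of 0.55 was −0.06 without LPS replicate 1.

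No hydroxylase reached an unadjusted p under 0.05 after LPS. The log2 fold changes were 0.20 ± 0.14 for Plod1, −0.11 ± 0.20 for Plod2 and 0.10 ± 0.27 for P4ha1 (SE, n = 3). P4ha1 was at 9.85, 21.4 and 28.7 FPKM in the LPS lungs, against 21.5, 14.9 and 20.1 FPKM in control lungs, so LPS lungs lay on both sides of the control range. Without LPS replicate 1 the values were 0.09 for Plod1, 0.02 for Plod2 and 0.37 for P4ha1.

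Of the 7 tested basement membrane chains, 3 had a fitted level above and 4 below control (median −0.12). Without LPS replicate 1, 4 were above and 3 below (median 0.06). Col4a2 was at 114, 114 and 99.7 FPKM in LPS lungs, against 81.8, 68.7 and 98.7 FPKM in control lungs (0.47 ± 0.19, SE, and 0.31 without LPS replicate 1), and Col4a1 overlapped between the groups (0.33 ± 0.21, SE, and 0.41). Col4a3 and Col4a4, the chains of the alveolar basement membrane, split the LPS group. Col4a3 was at 0.63, 4.10 and 4.48 FPKM in LPS lungs, against 2.46, 5.38 and 5.15 FPKM in control lungs. Col4a4 was at 4.58, 13.3 and 12.0 FPKM in LPS lungs, against 11.2, 10.6 and 13.3 FPKM in control lungs. Their log2 fold changes of −0.55 and −0.22 were −0.10 and 0.06 without LPS replicate 1. Both were lowest of all 12 libraries in that lung, as were Col13a1 and Col17a1, which span the cell membrane. Of 12 alveolar type 1 markers, 11 had a fitted level below control (median −0.33), and their summed level was 6791 to 7899 FPKM in LPS lungs and 5319 to 8652 FPKM in control lungs. Their part in the type IV values was not tested.

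Col18a1, the source of endostatin, was at 7.07, 9.30 and 11.8 FPKM in LPS lungs and 14.2, 7.32 and 10.6 FPKM in control lungs, overlapping. Of the type VI chains, Col6a2 was at 93.7, 83.1 and 68.9 FPKM in LPS lungs, against 87.0, 37.1 and 72.3 FPKM in control lungs. Col6a1 was at 23.6, 46.8 and 45.1 FPKM in LPS lungs and 42.0, 31.2 and 44.9 FPKM in control lungs, and its log2 fold change was 0.00 ± 0.20 (SE). Col6a3, the third chain, had 0.12 ± 0.22, with no overlap on scaled CPM and overlap in FPKM, and Col14a1, which decorates fibrils, had 0.19 ± 0.26 (SE). Col17a1 of hemidesmosomes was at 0.03, 0.40 and 0.52 FPKM in LPS lungs and 0.23, 0.63 and 0.57 FPKM in control lungs. Col8a1, a network chain of vessel walls, was at 3.81, 1.40 and 1.02 FPKM in LPS lungs, against 1.13, 0.75 and 0.54 FPKM in control lungs (1.51 ± 0.51, SE, and 0.53 without LPS replicate 1), and its groups overlapped. Col7a1 of anchoring fibrils and Col16a1, a fibril-associated chain, differed through 1 lung: Col7a1 was at 9.48, 3.06 and 2.05 FPKM in LPS lungs and 3.38, 1.36 and 2.41 FPKM in control lungs, and its log2 fold change of 1.21 was 0.06 without LPS replicate 1. Col16a1 had 0.86, and 0.04 without that library, and Col5a1 had 1.09 and 0.10. Col12a1, a fibril-associated chain, was the 1 tested member with all LPS lungs below all control lungs on scaled CPM (4.59% of all genes), at 0.56, 0.55 and 0.68 FPKM in LPS lungs, against 0.84, 0.69 and 1.15 FPKM in control lungs. The other tested members, Col4a5, Col8a2, Col9a3, Col11a2, Col13a1, Col15a1, Col20a1, Col23a1, Col27a1, Col5a3, Loxl3, P4ha2 and Plod3, had log2 fold changes of −0.88 to 0.37, none at an unadjusted p under 0.05.

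In all, 10 of the 41 members lay higher in every LPS lung than in every control lung on scaled CPM, against 4.87% of all genes tested. In 6 members, namely Col1a2, Col3a1, Col5a2, Eln, Fbn1 and Lox, the 3 LPS lungs lay above all 9 other lungs, against 1.23% of all genes tested. For Fbn1 this held on scaled CPM and not in deposited FPKM, where control replicate 1 (5.11) was above LPS replicate 3 (5.06). Without LPS replicate 1, 3 members (Col1a2, Col3a1 and Eln) were higher at an unadjusted p under 0.05, 7.32% of the 41 against 3.7% of all genes. edgeR then called 25 genes (0.183%), 0 of them members. The median log2 fold change of the 41 members was 0.18 with all libraries and 0.09 without LPS replicate 1, where that of all genes tested was −0.04 and −0.05. DESeq2 called 138 genes, among them Eln (log2 fold change 3.23, DESeq2 adjusted p = 0.0049) and Col3a1 (0.89, DESeq2 adjusted p = 0.0435), and limma on log2(FPKM + 1) called 2, neither a member.

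**Figure D3:**
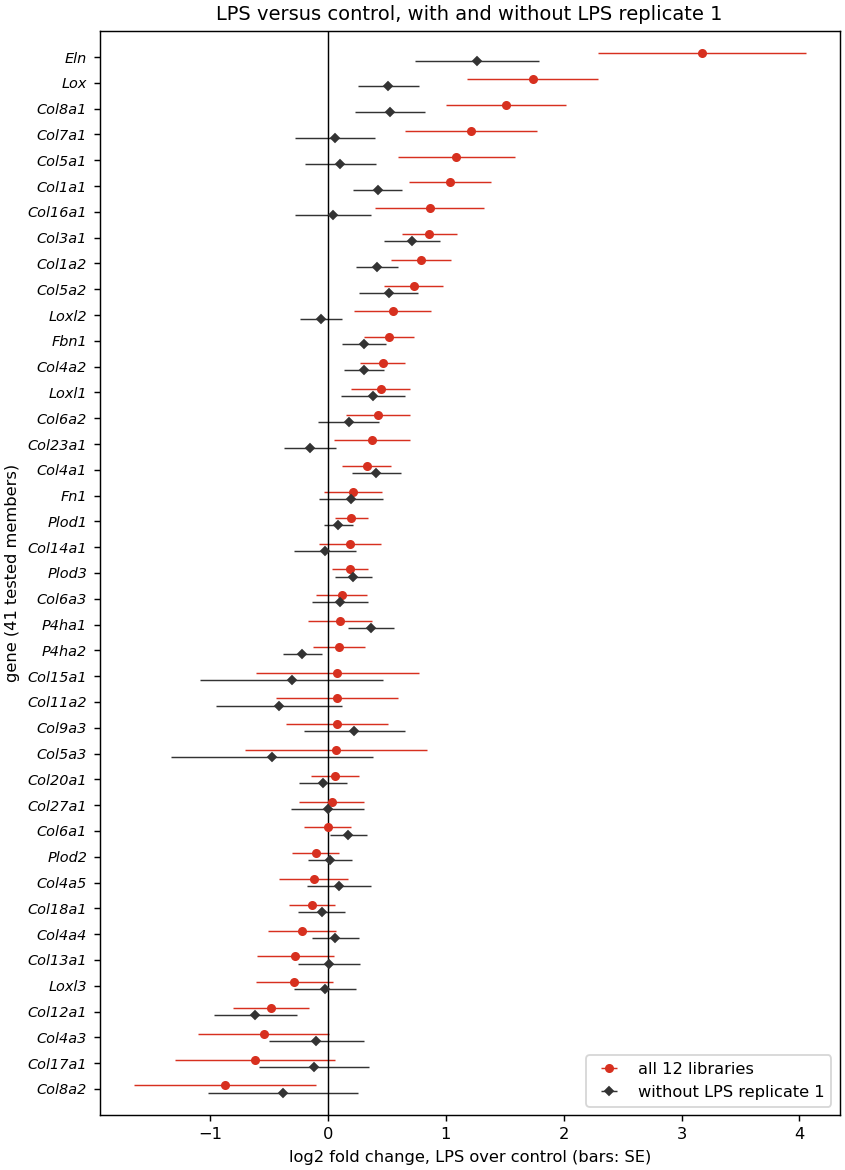
Log2 fold change of LPS over control for the 41 tested members with all 12 libraries (circles) and without LPS replicate 1 (diamonds), bars giving the SE from the edgeR fit. Eln (3.17 and 1.26) and Lox (1.74 and 0.51) shift most among the labelled genes near the top, while Col3a1 (0.86 and 0.71) shifts little.

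Values of other cell types and of matrix genes outside the rule stand beside this pattern. Neutrophil markers summed to 2202, 557 and 699 FPKM in the LPS lungs, against 301, 894 and 654 FPKM in control lungs. Macrophage markers summed to 893, 621 and 815 FPKM in the LPS lungs, against 294, 237 and 348 FPKM in control lungs, and 13 of 13 had a fitted level above control. Smooth muscle and myofibroblast markers lay the other way, with 13 of 14 below control (median −0.59), and their summed level was 539 to 974 FPKM in LPS lungs and 734 to 1430 FPKM in control lungs. Mesothelial markers were above control in 7 of 7 (median 0.45), and their summed level was 374 to 510 FPKM in LPS lungs and 311 to 414 FPKM in control lungs. Cell cycle genes were above control in 15 of 16 (median 1.24), 8 of them at an unadjusted p under 0.05. Fat markers were below control in 11 of 11 (median −6.17) and cardiac muscle markers in 11 of 12 (median −1.19). The fat sum was high in control replicate 1 alone, at 11938, 90.8 and 295 FPKM in control lungs and 213, 89.5 and 105 FPKM in LPS lungs. Cardiac sums overlapped, at 1278, 766 and 121 FPKM in control lungs and 113, 186 and 542 FPKM in LPS lungs. Of 16 fibroblast markers, 7 were above and 9 below control (median −0.06). Their part in the collagen values was not tested. Adamts2 and Adamts14, which cut the amino-terminal propeptide from procollagen, were higher at an unadjusted p under 0.05. Adamts14 was at 3.58, 2.33 and 2.32 FPKM in LPS lungs, against 1.22, 1.05 and 1.23 FPKM in control lungs (1.33 ± 0.32, SE; edgeR adjusted p = 0.278). Over all 24 tested genes of collagen folding, processing and secretion, 3 were higher and 0 lower at that threshold (median −0.03). Serpinh1, the collagen chaperone HSP47, was at 13.4, 46.5 and 59.9 FPKM in LPS lungs and 31.2, 46.1 and 58.1 FPKM in control lungs. Of 23 tested TGF-beta pathway genes, 2 were higher and 2 lower at that threshold. Tgfb3, a TGF-beta ligand, was at 8.06, 10.9 and 9.43 FPKM in LPS lungs, against 8.09, 5.68 and 6.33 FPKM in control lungs (0.55 ± 0.16, SE). Its groups overlapped in FPKM, and the 2 lower genes of this list are not named here. Of 19 elastic fibre assembly genes, 4 were higher and 0 lower at that threshold (median 0.05), and of 20 matricellular genes and small proteoglycans, 3 were higher and 2 lower (median −0.05).

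LPS+bLF versus LPS asked how matrix genes differed when bLF was given with LPS. Col1a1, Col1a2, Col3a1, Col5a2, Eln and Lox were lower in LPS+bLF lungs than in LPS lungs at an unadjusted p under 0.05, while 3 of the 8 tested fibrillar chains (Col11a2, Col27a1 and Col5a3) had a fitted level above LPS, and 4 of 8 without LPS replicate 1. This comparison shares its LPS lungs with the one above. edgeR's quasi-likelihood test with Benjamini-Hochberg adjustment called 0 of 13735 genes (0% called; smallest adjusted p = 0.689), with 950 at an unadjusted p under 0.05, while DESeq2 called 7 and limma 0, none of them a member. At an unadjusted p under 0.05, 10 members were lower, 24.4% of the 41 against 3.65% of all genes tested, and 0 were higher, against 3.27%. The fitted log2 fold change was above 0 for 5 of the 41 members, 12.2% against 47.9% of all genes tested, with a median of −0.33 against −0.02 for all genes tested.

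Col1a2 was at 53.8, 46.8 and 41.1 FPKM in LPS+bLF lungs, against 113, 70.4 and 81.1 FPKM in LPS lungs. The log2 fold change was −0.95 ± 0.26 (SE, n = 3; edgeR adjusted p = 0.689), and −0.58 ± 0.18 without LPS replicate 1. Col5a2 was at 5.46, 3.09 and 3.04 FPKM in LPS+bLF lungs, against 7.95, 7.14 and 6.47 FPKM in LPS lungs (−0.93 ± 0.25, SE, and −0.71 without LPS replicate 1). Col3a1 was at 34.2, 23.9 and 19.5 FPKM in LPS+bLF lungs, against 45.3, 39.8 and 46.3 FPKM in LPS lungs (−0.79 ± 0.24, SE, and −0.64). In none of these 3 genes did the groups overlap, and LPS+bLF replicate 1 was the highest of its group in each.

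Eln was at 201, 94.4 and 250 FPKM in LPS+bLF lungs, against 2147, 336 and 266 FPKM in LPS lungs, so the highest LPS+bLF lung lay just under the lowest LPS lung. Its log2 fold change was −2.52 ± 0.86 (SE), and −0.61 ± 0.53 without LPS replicate 1. Lox was at 7.80, 4.87 and 6.13 FPKM in LPS+bLF lungs, against 40.4, 10.2 and 9.99 FPKM in LPS lungs (−1.81 ± 0.56, SE, and −0.58 ± 0.26). Col1a1 was at 25.1, 21.0 and 19.0 FPKM in LPS+bLF lungs, against 64.4, 29.9 and 32.5 FPKM in LPS lungs (−1.03 ± 0.35, SE, and −0.42). Loxl1 overlapped between the groups and was at 59.9, 34.6 and 62.8 FPKM in LPS+bLF lungs and 53.0, 59.4 and 57.5 FPKM in LPS lungs.

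Col4a1 was at 72.9, 45.5 and 59.1 FPKM in LPS+bLF lungs, against 63.8, 87.2 and 106 FPKM in LPS lungs, with overlap in FPKM and none on scaled CPM (−0.53 ± 0.21, SE, and −0.61 without LPS replicate 1). Col4a2 was at 92.3, 66.2 and 84.7 FPKM in LPS+bLF lungs, against 114, 114 and 99.7 FPKM in LPS lungs, with no overlap (−0.45 ± 0.19, SE, and −0.29). In all, 11 of the 41 members were lower in every LPS+bLF lung than in every LPS lung on scaled CPM, against 5.19% of all genes tested, and 0 were higher, against 4.99%. Without LPS replicate 1, 6 members (Col1a2, Col3a1, Col4a1, Col4a3, Col5a2 and Lox) were lower at an unadjusted p under 0.05, 14.6% of the 41 against 3.84% of all genes. Macrophage markers summed to 438, 512 and 367 FPKM in LPS+bLF lungs, against 893, 621 and 815 FPKM in LPS lungs, and 13 of 13 had a fitted level below LPS. Neutrophil markers were below LPS in 12 of 13 (median −0.99), cell cycle genes in 13 of 16 (median −0.78) and mesothelial markers in 7 of 7 (median −0.48). Neutrophil sums overlapped, at 602, 505 and 466 FPKM in LPS+bLF lungs and 2202, 557 and 699 FPKM in LPS lungs. Mesothelial sums also overlapped, at 302 to 427 FPKM and 374 to 510 FPKM. Cell cycle sums did not, at 94.0 to 99.3 FPKM and 101 to 184 FPKM. Smooth muscle and myofibroblast markers were above LPS in 11 of 14 (median 0.36), fat markers in 11 of 11 (median 7.33) and skeletal muscle markers in 8 of 8 (median 5.69). Among these lungs the fat sum was 23792 FPKM in LPS+bLF replicate 2 and 89.5 to 213 FPKM in the rest. The skeletal muscle sum was 7264 FPKM in LPS+bLF replicate 3 and 14.7 to 195 FPKM in the rest. Their part in the collagen values was not tested. Adamts14 was at 1.31, 1.01 and 1.32 FPKM in LPS+bLF lungs, against 3.58, 2.33 and 2.32 FPKM in LPS lungs.

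LPS+bLF versus control set the lungs given both agents beside untreated ones. None of the 8 tested fibrillar chains reached an unadjusted p under 0.05, 6 had a fitted level above control and 2 below (median 0.14), and the intervals were wide. The log2 fold changes were 0.08 for Col3a1 (95% interval −0.46 to 0.62), −0.16 for Col1a2 (−0.75 to 0.42), 0.00 for Col1a1 (−0.79 to 0.80), 0.80 for Col5a3 (−0.97 to 2.58) and 0.65 for Eln (−1.23 to 2.53), the interval being that of the edgeR fit with 8 residual degrees of freedom. edgeR called 0 of 13735 genes (0% called), with 660 at an unadjusted p under 0.05, while DESeq2 called 12 and limma 0, none a member. At an unadjusted p under 0.05, 2 members were lower (2.18% of all genes), namely Col20a1 and Col12a1, both minor fibril-associated chains, and 0 were higher (2.63% of all genes). Without control replicate 2 the number lower was 0, and without LPS+bLF replicate 1 it was 6. Col20a1 was at 2.34, 1.79 and 1.65 FPKM in LPS+bLF lungs, against 2.53, 2.67 and 2.56 FPKM in control lungs, without overlap (−0.48 ± 0.20, SE), and it was the 1 tested member with all LPS+bLF lungs below all control lungs on scaled CPM (5.74% of all genes), while 0 lay above (6.65%). Col4a3 had −1.04 ± 0.56, Col4a5 had −0.48 ± 0.29, Fn1 had −0.35 ± 0.25, Plod2 had −0.24 ± 0.20 and Loxl1 had 0.32 ± 0.25 (SE, n = 3). LPS+bLF replicates 2 and 3, whose fat or muscle markers were high, had the lowest Col4a3 levels of the group (1.42 and 1.67 FPKM, against 3.17 in replicate 1). The lowest Col4a3 level of all libraries was in LPS replicate 1 (0.63 FPKM), where fat and skeletal muscle markers summed to 213 and 34.4 FPKM. The part of fat or muscle in the Col4a3 levels was not tested.

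bLF versus control asked what bLF did without LPS. On scaled CPM, P4ha1, Plod1 and Plod3 were higher in every bLF lung than in every control lung (7.32% of the 41, against 4.34% of all genes tested). Col20a1 and Loxl2 were lower, at 4.88% of the 41, which is close to the 4.57% of all genes tested. All other tested members overlapped. edgeR called 0 of 13735 genes (0% called; smallest adjusted p = 1), with 189 at an unadjusted p under 0.05, while DESeq2 called 1 and limma 0, none a member. At an unadjusted p under 0.05, 2 members were higher, against 0.714% of all genes, and 0 were lower, against 0.663%. Without control replicate 2, 0 members were higher at that threshold. All 5 tested hydroxylases had a fitted log2 fold change above 0 (median 0.32), where the median of the 41 members was −0.03. Of the 41 members 43.9% lay above 0, against 45.4% of all genes tested. P4ha2 and Plod2 differed from control by less than their SE.

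P4ha1, a catalytic subunit of prolyl 4-hydroxylase (ID 18451, chromosome 10, 59323197 to 59373304), was at 32.8, 33.0 and 29.7 FPKM in bLF lungs, against 21.5, 14.9 and 20.1 FPKM in control lungs. All bLF lungs lay above all 9 other lungs, the highest of which was LPS replicate 3 at 28.7 FPKM. P4ha1 was the 1 tested member with this order, which held for 0.481% of all genes tested. The log2 fold change was 0.77 ± 0.28 (SE, n = 3; edgeR adjusted p = 1), and it stayed between 0.70 and 0.83 when any 1 library was left out. Plod1, a lysyl hydroxylase, was at 25.1, 25.8 and 27.7 FPKM in bLF lungs, against 21.9, 17.76 and 23.4 FPKM in control lungs (0.34 ± 0.14, SE). Plod3, which also adds sugars to hydroxylysine, was at 52.8, 52.8 and 50.5 FPKM in bLF lungs, against 48.6, 31.5 and 48.3 FPKM in control lungs (0.32 ± 0.15, SE). Neither gene's groups overlapped, and control replicate 2 was the lowest library for both in the control group. P4ha2 (0.08 ± 0.22) and Plod2 (0.09 ± 0.20) overlapped with control. Among the chains, Col20a1 had −0.35 ± 0.20, Col6a2 had 0.44 ± 0.27 and Col5a2 had −0.36 ± 0.25 (SE).

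**Figure D4:**
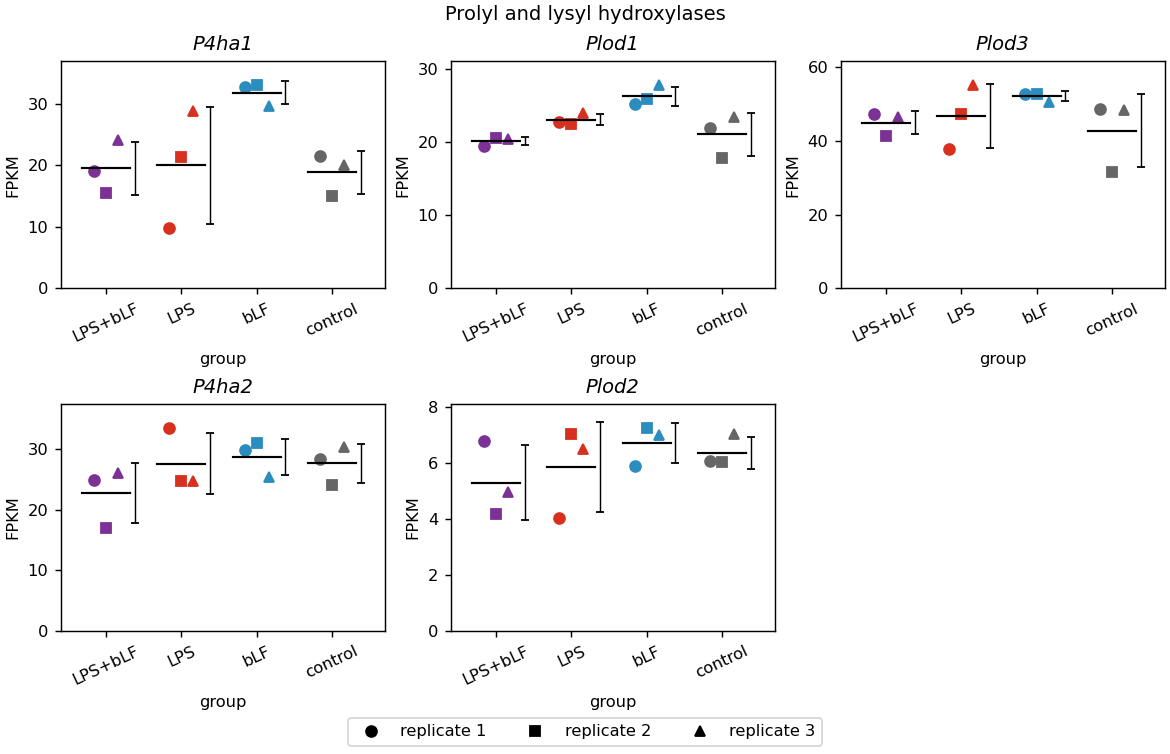
Deposited FPKM of 5 hydroxylase genes, 1 point per lung, with lines at the group means and bars of 1 SD (n = 3). P4ha1 lies at 29.7 to 33.0 FPKM in the bLF lungs, above every other lung, and Plod1 at 25.1 to 27.7 FPKM.

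LPS+bLF versus bLF gave the LPS difference in mice that had bLF, with no LPS-only lung on either side. It shares its bLF lungs with the comparison of bLF and control, so P4ha1 and Plod1, which were high in those lungs, are not independent evidence here. P4ha1 was at 19.1, 15.4 and 24.1 FPKM in LPS+bLF lungs, against 32.8, 33.0 and 29.7 FPKM in bLF lungs (−0.68 ± 0.27, SE). Plod1 was at 19.5, 20.6 and 20.3 FPKM in LPS+bLF lungs, against 25.1, 25.8 and 27.7 FPKM in bLF lungs (−0.35 ± 0.14, SE). These were the 2 members lower at an unadjusted p under 0.05 (1.02% of all genes), and 0 were higher (1.65% of all genes); without bLF replicate 2, 0 were lower. On scaled CPM, Col8a1 and Loxl2 were higher in every LPS+bLF lung (4.88% of the 41, against 6.1% of all genes). P4ha1, Plod1 and Plod3 were lower (7.32% of the 41, against 6.53% of all genes). edgeR called 0 of 13735 genes (0% called), with 366 at an unadjusted p under 0.05, while DESeq2 called 2 and limma 0, none a member. The fibrillar chains had a median log2 fold change of −0.01, with Col3a1 at 0.33 (95% interval −0.21 to 0.88) and Col1a2 at −0.08 (−0.67 to 0.50). Eln had 1.02 ± 0.82, Fbn1 had 0.31 ± 0.21, Fn1 had −0.39 ± 0.25 and Plod2 had −0.33 ± 0.20 (SE).

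The interaction is the LPS effect with bLF minus the LPS effect without it. edgeR called 0 of 13735 genes (0% called; smallest adjusted p for a member 1), with 384 at an unadjusted p under 0.05, while DESeq2 called 1 and limma 0, none a member. At that unadjusted threshold 4 members were below 0, against 1.54% of all genes, and 0 above, against 1.26%. These were Plod1 (−0.55 ± 0.20), Col1a1 (−1.24 ± 0.49), Col4a2 (−0.65 ± 0.27) and Col1a2 (−0.87 ± 0.36, SE). Without LPS replicate 1 the values were −0.44, −0.62, −0.49 and −0.50, and P4ha1 had −1.05 ± 0.26 in place of −0.78 ± 0.39. Without control replicate 2, 1 member was below 0 at that threshold, and without LPS replicate 3, 7 were.

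Chains that share a molecule varied in their ratio between lungs, the ratio being that of deposited FPKM. Col1a1 to Col1a2, the chains of type I collagen, had a ratio of 0.568, 0.425 and 0.401 in LPS lungs and 0.439, 0.333 and 0.450 in control lungs. Over all 12 lungs it ran from 0.333 to 0.568. Col4a1 to Col4a2, which start 21 bases apart, ran from 0.559 in LPS replicate 1 to 1.06 in LPS replicate 3. Col6a1 to Col6a2 ran from 0.251 in LPS replicate 1 to 0.840 in control replicate 2. Col5a1 to Col5a2 ran from 0.699 in control replicate 2 to 2.53 in LPS replicate 1. LPS replicate 1 and control replicate 2 held the extremes of the type I, type VI and type V ratios. They also held those of Col4a3 to Col4a4 (0.138 and 0.510). The transcripts of the type V pair differ in GC content, at 58.0% for Col5a1 and 49.6% for Col5a2. Those of Col6a1 and Col6a2 (56.7% and 56.2%) and of Col4a3 and Col4a4 (50.4% and 51.1%) were close. Col1a1 and Col1a2 had 58.9% and 55.7%. Control replicate 2 was the library with the strongest correlation with GC content given above, and LPS replicate 1 correlated at 0.04. The part of GC content in the ratios was not tested.

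Several members are neighbours in the genome. Col3a1 and Col5a2 lie 24625 bases apart on chromosome 1 and had LPS log2 fold changes of 0.86 and 0.73. The Col4a1 and Col4a2 pair had 0.33 and 0.47. Col4a4, which overlaps the start of Col4a3 in the annotation, had −0.22 where Col4a3 had −0.55. Col6a1 and Col6a2, 85162 bases apart on chromosome 10, had 0.00 and 0.43.

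Several minor chains followed single lungs and not groups. Col15a1, a basement membrane chain of muscle and capillaries, was at 6.01 FPKM in LPS+bLF replicate 2, 4.55 in bLF replicate 1 and 5.14 in control replicate 1, against 0.76 to 3.16 FPKM in the other 9 lungs. Col5a3 was highest in the same 3 lungs, at 5.97, 3.31 and 4.38 FPKM, against 0.51 to 2.82 FPKM elsewhere. These are the 3 lungs whose fat markers summed to 6242 FPKM or more. The same 3 lungs had cardiac muscle markers at 5177, 6055 and 1278 FPKM, against 113 to 766 FPKM elsewhere. The part of fat or heart tissue in these chains was not tested.

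Some cartilage chains were higher in 2 of those lungs. Col2a1, the fibrillar chain of cartilage, had 26 counts in LPS+bLF replicate 2 and 33 in bLF replicate 1, against 0 to 7 in the other 10 lungs. Col10a1, the chain of hypertrophic cartilage, had 15 and 25 counts in these lungs and 0 in the other 10, where the limit set by a count of 0 is 0.1683 to 0.1795 CPM, equal to 3 counts per library and covering counting error only. Col9a2 had 15 and 27 counts, against 0 to 4 elsewhere, and Col9a1 had 2 counts in LPS+bLF replicate 2 and 0 in all other lungs. Col9a3, the remaining type IX chain, was at 0.55 and 0.51 FPKM in these lungs, against 0.24 to 0.66 FPKM elsewhere. Of the 19 cartilage markers in the files, 7 (Acan, Cnmd, Matn1, Prg4, Snorc, Sox9 and Ucma) were higher in both lungs than in all others and 12 were not. Snorc and Ucma, chosen here after their values were seen, were at 0.93 and 0.89 FPKM in LPS+bLF replicate 2 and 2.82 and 0.48 FPKM in bLF replicate 1, and at 0 in the other 10 lungs. The summed level of the cartilage markers was 398 FPKM in LPS+bLF replicate 2, 468 FPKM in bLF replicate 1 and 229 to 1086 FPKM elsewhere, 78.8% of it Chil1. Without Chil1 it was 94.1 FPKM in LPS+bLF replicate 2, 147 FPKM in bLF replicate 1 and 113 to 155 FPKM elsewhere. Col6a4, which is untested, was also highest in these lungs, at 0.64 and 0.31 FPKM, against 0.03 to 0.23 FPKM elsewhere.

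**Figure D5:**
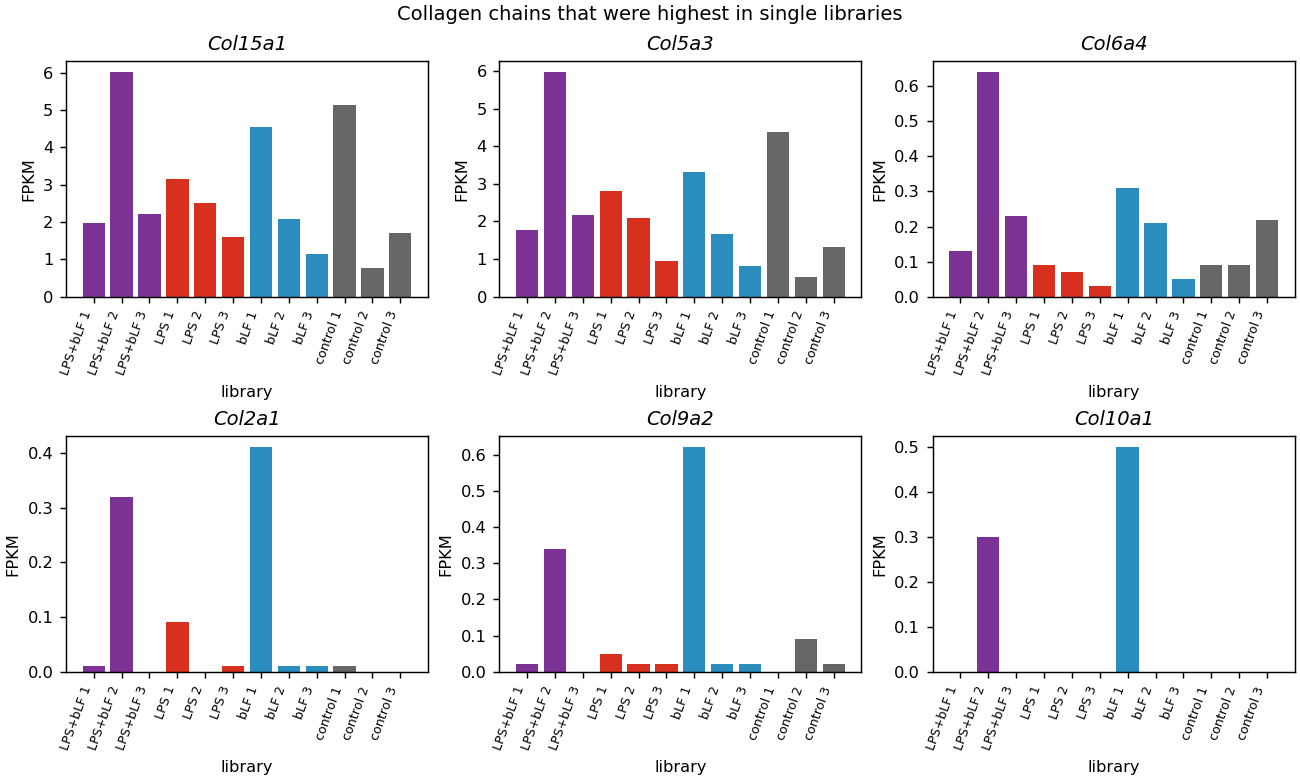
Deposited FPKM of 6 collagen chains in each of the 12 lungs, bars coloured by group. Col15a1 and Col5a3 peak in 3 lungs, namely the second LPS+bLF lung and the first bLF and control lungs, and Col2a1, Col9a2 and Col10a1 peak in the first pair of these.

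The remaining untested members were P4ha3, the third prolyl hydroxylase subunit (0 to 0.86 FPKM), Fbn2 and Loxl4 (at most 0.16 and 0.19 FPKM), and the chains Col4a6, Col6a5, Col6a6, Col11a1, Col19a1, Col22a1, Col24a1, Col25a1, Col26a1 and Col28a1 (at most 0.33 FPKM). P4ha3 had 11, 8 and 0 counts in LPS+bLF lungs, 7, 14 and 20 in LPS lungs, 5, 10 and 13 in bLF lungs and 9, 9 and 32 in control lungs, and it was not tested.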

How the data were processed

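Lung RNA of 12 mice in 4 groups of 3 was analysed, out of 24 mice in the study. Per the submitters' processing notes, HISAT2 2.1.0, RSEM 1.2.8 and the build mm10 were named, with no role or order; annotation, strand and filters are not given in the sources used here. Per the file headers, each deposited file pairs a count with an FPKM. These are estimated counts as deposited by the authors, not normalized: 4.12 to 5.91% of the genes of a library had a value that was not whole. They were rounded before testing. The FPKM values are the authors' own and were used for levels.

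The test took genes that reached 0.5 FPKM in 3 or more libraries and used edgeR 4.0.16 (quasi-likelihood test, TMM factors, R 4.3.3) with all 4 groups fitted together (8 residual degrees of freedom), two-sided, with Benjamini-Hochberg adjustment over all genes and a threshold of 0.05. The SE was derived from the F statistic, and the code was tested on simulated data. DESeq2 1.42.0, limma 3.58.1, other scalings and filters, a replicate block, fits of the compared groups alone and the omission of each library were alternatives. Overlap of groups was read on TMM-scaled CPM; reading it on deposited FPKM was an alternative chosen after seeing the data. The p-values set each difference between groups against the spread between lungs of the same group, estimated over all 4 groups. Intervals of counts and the floor of 3 counts cover counting error only.

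The members, the gene lists and the rule for named genes were chosen with earlier results of these data known. The rule named a preset list of members, the 6 members with the smallest p in each comparison at a mean of at least 1 FPKM (4 for the interaction), and up to 4 genes of each other list. Col7a1, Col16a1, Col12a1, Col13a1, Col5a3, Col6a4, Col9a1, Col9a2, Col10a1, Serpinh1, Snorc and Ucma were added after their values were seen. IDs of all 59 members were matched to RefSeq (GRCm38.p6). Col21a1 was not analysed here.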

Additional observations from a re-analysis of the deposited data

How the results depend on the processing

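With 8 residual degrees of freedom, a common biological coefficient of variation of 0.352 and 3 lungs per group, no member passed edgeR's adjusted threshold in any of the 6 comparisons, and this held without any 1 library. DESeq2 called 138 genes in LPS versus control, 2 of them members, and 7 in LPS+bLF versus LPS, 1 in bLF versus control, 12 in LPS+bLF versus control, 2 in LPS+bLF versus bLF and 1 in the interaction, none of these a member. limma on log2(FPKM + 1) called 2 genes in LPS versus control. The causes were not tested.

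The number of members at an unadjusted p under 0.05 moved as follows. With no filter on low values it was 2 lower in LPS versus control, 2 higher in LPS+bLF versus LPS, 1 higher in LPS+bLF versus control and 1 higher in the interaction, where low members enter the test. In fits of the compared groups alone it was 6 lower in LPS+bLF versus LPS and 2 higher in LPS+bLF versus bLF. In LPS+bLF versus control it was 1 lower with limma at a pseudocount of 1 or 0.1, and 0 lower at a mean of at least 5 FPKM, and in LPS+bLF versus bLF it was 1 lower with either limma fit. The median log2 fold change of the members was −0.138 in LPS+bLF versus LPS with no filter and −0.537 in the interaction at a mean of at least 5 FPKM, where fewer members are tested.

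The number of members whose groups did not overlap was, with no filter, 3 lower in LPS versus control, 4 higher in LPS+bLF versus LPS, 5 higher in bLF versus control and 2 higher in LPS+bLF versus control. At a mean of at least 5 FPKM it was 0 lower in LPS versus control, 7 lower in LPS+bLF versus LPS, 0 lower in bLF versus control, 2 lower in LPS+bLF versus control and 0 higher in LPS+bLF versus bLF. With relative log expression factors it was 0 lower in LPS versus control, and on deposited FPKM it was 1 lower in bLF versus control.

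With the replicate number as a block, 1 member was lower at an unadjusted p under 0.05 in LPS+bLF versus control, against 2 without the block. Libraries with the same number correlated at −0.694 to 0.571, and 2 of the 12 correlated best with their own number. The sample titles give only the number, and these correlations cannot show whether lungs of the same number shared a batch.

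With each library left out in turn, genes called ran 0 to 25 in LPS versus control (25 without LPS replicate 1). Members at an unadjusted p under 0.05 ran, higher, 3 to 13 in LPS versus control, 0 to 0 in LPS+bLF versus LPS, 0 to 3 in bLF versus control, 0 to 1 in LPS+bLF versus control, 0 to 1 in LPS+bLF versus bLF, 0 to 0 in the interaction, and lower, 0 to 0 in LPS versus control, 6 to 13 in LPS+bLF versus LPS, 0 to 1 in bLF versus control, 0 to 6 in LPS+bLF versus control, 0 to 3 in LPS+bLF versus bLF, 1 to 7 in the interaction. Members without overlap ran, higher, 10 to 15 in LPS versus control, 0 to 1 in LPS+bLF versus LPS, 3 to 8 in bLF versus control, 0 to 5 in LPS+bLF versus control, 2 to 5 in LPS+bLF versus bLF, and lower, 0 to 4 in LPS versus control, 9 to 14 in LPS+bLF versus LPS, 2 to 8 in bLF versus control, 1 to 11 in LPS+bLF versus control, 3 to 12 in LPS+bLF versus bLF. The median log2 fold change of the members ran 0.088 to 0.3 in LPS versus control, −0.487 to −0.256 in LPS+bLF versus LPS, −0.129 to 0.054 in bLF versus control, −0.161 to −0.017 in LPS+bLF versus control, −0.223 to −0.068 in LPS+bLF versus bLF, −0.407 to −0.183 in the interaction.

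Signs near 0 turned for a few named genes in LPS versus control. Col6a1 was 0.01 with DESeq2, with relative log expression factors and in the fit of those groups alone, and P4ha1 was −0.02 and −0.03 with limma at a pseudocount of 1 and 0.1. With libraries left out, the log2 fold change ran −0.02 to 0.42 for Col14a1, −0.32 to 1.07 for Col15a1, −0.31 to 0.08 for Col18a1, −0.42 to 0.06 for Col4a4, −0.12 to 0.17 for Col6a1, −0.06 to 0.79 for Loxl2, −0.24 to 0.37 for P4ha1, −0.18 to 0.02 for Plod2.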
